A study of Homo sapiens with 24 samples.

Results

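RNA of MV4-11 cells grown for 6 days with the DOT1L inhibitor EPZ004777 was compared with RNA of MV4-11 cells grown for 6 days with the vehicle. The groups were chosen by sample title, 3 treated and 3 vehicle samples with 1 Affymetrix array each. These are 6 of the 24 arrays of the series. Treated cells received 3 uM EPZ004777, and vehicle cells received 0.1% DMSO, the solvent of the inhibitor. All 6 samples were MV4-11, a human leukemia line labelled as biphenotypic (B and myelomonocytic) with an MLL-AF4 rearrangement, in IMDM with 10% serum. The other arrays hold MV4-11 cells of days 2 and 4 and MOLM-13 cells of day 6, an acute myeloid leukemia line with an MLL-AF9 rearrangement in RPMI, each with 3 treated and 3 vehicle cultures. The labels call the replicates biological and do not say how they were made. The p-values and SEs rest on the spread inside all 8 groups of the 24 arrays together, which may be technical. Each line is 1 established line with 1 fusion, treated at 1 dose, so the results are those of that line and dose.

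DOT1L is the enzyme that methylates lysine 79 of histone H3 on the bodies of transcribed genes. In leukemias with an MLL (KMT2A) rearrangement, the front of MLL is joined to a partner protein such as AF4 or AF9. The fusion brings DOT1L and elongation factors to genes that MLL occupies, and genes of the HOXA and MEIS1 programme are its best-known targets. Inhibitors of DOT1L compete with its methyl donor, S-adenosylmethionine, and act on transcription over days, since the mark is lost slowly. A level below is the log2 of the deposited intensity of 1 probe set, which runs from 2.19, the lowest value on every array, to 16.1, and levels of different genes are not compared. A change is the log2 fold change, treated minus vehicle, with the SE of the limma model. A gene is said to have risen, fallen or changed where its p-value, adjusted by the Benjamini-Hochberg method over all 10971 genes tested, was under 0.05. In RNA of whole cultures, fewer cells of a kind and less RNA per cell cannot be told apart.

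Of the treated arrays 1 stood apart, while the vehicle arrays were close to each other. In the control probe sets of ACTB and GAPDH, the signal at the 3' end exceeded that at the 5' end by 0.83, 0.86 and 1.91 (log2) on treated replicates 1, 2 and 3, against 0.57, 0.57 and 0.58 on the vehicle arrays. A wide gap is known as a sign of shortened or incompletely copied RNA. The mean correlation of an array with the others of its group was 0.988, 0.989 and 0.980 for treated replicates 1, 2 and 3, against 0.996 for each vehicle array. The median SD of a gene's level was 0.133 over the treated and 0.080 over the vehicle arrays, and it was 0.049 between treated replicates 1 and 2. Vehicle replicate 1 was also high in interferon-stimulated genes, described with that list. Some of the results that moved without an array are given beside their values, but not all. Of 12 markers of myelomonocytic cells analysed here, 2 stayed below a level of 4 on all 6 arrays. These were CD14 and FCGR1A, defining receptors of monocytes, whose probe sets lay at or close to the lowest value. The probe set of the pseudogene FCGR1BP, given below, had a measured level and may also read FCGR1A.

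By day 6 most genes had moved, and the larger changes were more often rises. Of 10971 genes, 6800 were called (62.0%), 3688 of them higher (33.6%) and 3112 lower (28.4%) in treated cultures. A change of at least 2-fold was reached by 1281 called genes (11.7%), with 859 higher (7.83%) and 422 lower (3.85%). The vehicle mean was below 4 in 157 of those rises, and the treated mean was below 4 in 35 of those falls. The median change over all genes was 0.035. The groups did not overlap in 7107 genes (64.8%). Without treated replicate 3, 6505 genes were called (59.3%), 3559 higher (32.4%) and 2946 lower (26.9%). Of the 6800 calls, 6079 were also made without that array, 721 were lost and 0 changed sign, and of the 1281 calls of at least 2-fold 1277 remained. With so many genes called, the count of a gene list is read against 33.6% higher and 28.4% lower, and its median against 0.035. Setting all arrays to a common median moved the split to 3176 higher and 3707 lower, so small changes of single genes near 0 take their direction from the scaling. The mean of all probe sets of a gene in place of the brightest gave 3241 higher and 3653 lower, so the balance of rises and falls over all genes is not fixed by these arrays.

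**Figure D1:**
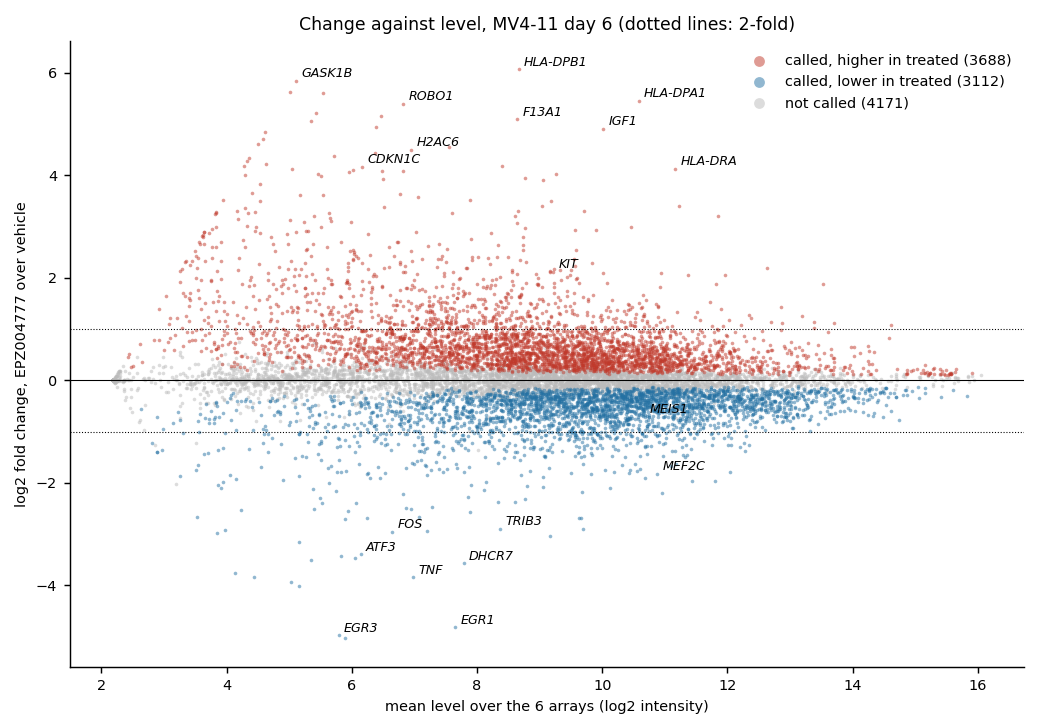
Log2 fold change of EPZ004777 over vehicle against the mean level over the 6 arrays for 10971 genes, 1 point a gene, coloured by call. The 3688 higher and 3112 lower genes lie on both sides of 0, HLA-DPB1 (6.07) is the top rise, and the genes at the left edge start from the lowest value.

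MHC class II genes had the highest median change of the 45 gene lists examined. These molecules present peptides from the endosome to helper T cells. The factor CIITA switches their genes on at promoters with an X box and a Y box, a CCAAT site read by NF-Y. The first 5 sequences below are the 150 bases before the start of class II genes that rose, on the coding strand 5' to 3', from RefSeq promoter windows of build GRCh38.p14. They are shown because these genes moved together. Capitals mark ATTGG, the core of the Y box, or CCAAT, the same letters on the other strand.
HLA-DPB1 (chromosome 6, chr6:33075840-33075989, plus strand): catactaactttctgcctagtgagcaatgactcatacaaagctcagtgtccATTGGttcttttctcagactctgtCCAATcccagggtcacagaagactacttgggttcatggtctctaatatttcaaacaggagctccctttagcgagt
HLA-DQB1 (chromosome 6, chr6:32666658-32666807, minus strand): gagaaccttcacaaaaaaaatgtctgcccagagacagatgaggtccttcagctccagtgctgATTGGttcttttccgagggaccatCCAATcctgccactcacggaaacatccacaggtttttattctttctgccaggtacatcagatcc
HLA-DRB1 (chromosome 6, chr6:32589849-32589998, minus strand): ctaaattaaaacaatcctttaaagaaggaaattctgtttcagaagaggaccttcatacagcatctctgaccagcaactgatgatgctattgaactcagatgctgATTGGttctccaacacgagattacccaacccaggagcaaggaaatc
HLA-DMA (chromosome 6, chr6:32953098-32953247, minus strand): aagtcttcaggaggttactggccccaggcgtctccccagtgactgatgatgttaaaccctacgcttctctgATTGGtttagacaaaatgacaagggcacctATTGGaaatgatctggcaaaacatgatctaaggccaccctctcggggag
CD74 (chromosome 5, chr5:150412911-150413060, minus strand): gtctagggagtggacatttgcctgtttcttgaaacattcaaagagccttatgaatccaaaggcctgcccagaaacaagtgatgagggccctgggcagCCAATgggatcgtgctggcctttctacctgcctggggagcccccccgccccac
On either strand of the whole window (250 bases before to 50 after the start) ATTGG was found in 7 of 8 tested members of the list that have a window, against 10846 of 27305 genes (39.7%). A match is a description of letters and was not tested as a site.

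Of 10 class II genes tested, 9 rose and 0 fell, each by more than 2-fold, with a median of 3.43 against 0.035 over all genes. HLA-DPB1, the beta chain of HLA-DP, had levels of 11.77, 11.84 and 11.49 under EPZ004777, against 5.68, 5.88 and 5.32 under vehicle. It rose by 6.07 ± 0.24 (adjusted p = 9.04e-14), the top rise among genes with a measured vehicle level. HLA-DPA1, its alpha chain, stood at 13.33, 13.40 and 13.21 in treated cultures, against 7.81, 7.92 and 7.83 in vehicle cultures, a change of 5.46 ± 0.10. Neither gene's groups came near each other. HLA-DRA, the alpha chain of HLA-DR, was at 13.43, 13.61 and 12.64 under EPZ004777, against 9.04, 9.18 and 9.09 under vehicle, with treated replicate 3 the lowest of its group, and rose by 4.12 ± 0.18. HLA-DRB1 (3.21 ± 0.25) and HLA-DQB1 (4.19 ± 0.18) rose too, on probe sets of a kind that can also match near-identical HLA genes. The factors that load peptides rose with them: HLA-DMA by 3.30 ± 0.14, HLA-DMB by 2.37 ± 0.32 and the invariant chain CD74 by 2.20 ± 0.085. CIITA itself was at 8.80, 8.69 and 9.05 in treated cultures, against 5.04, 5.62 and 5.17 in vehicle cultures, and rose by 3.57 ± 0.19 (adjusted p = 5.11e-12). HLA-DOB, which restrains HLA-DM, had overlapping groups at a low level and a change of -0.26 ± 0.21 (adjusted p = 0.3). Without treated replicate 3 the count was again 9 of 10 and the median 3.45. The summed linear intensity of the list was 56431, 59043 and 44239 on the treated arrays, against 5229, 5339 and 5847 on the vehicle arrays.

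MHC class I genes changed little beside them. Of 12 tested, 6 rose and 1 fell, none by 2-fold, with a median of 0.24. NLRC5, the activator of class I genes, rose by 0.50 ± 0.071, and HLA-C (0.50 ± 0.071), HLA-F (0.60 ± 0.089), HLA-B (0.33 ± 0.075) and the peptide transporter subunit TAP1 (0.52 ± 0.11) rose by similar amounts. PSMB8, a subunit of the immunoproteasome, fell by 0.35 ± 0.12 with all 6 arrays, and its adjusted p was 0.107 without treated replicate 3. B2M, the common light chain, had a change of 0.13 ± 0.11 (adjusted p = 0.313).

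Outside the class II genes, the largest rises were those of single genes with varied roles. ROBO1, a receptor for SLIT guidance proteins, stood at 9.50, 9.63 and 9.42 under EPZ004777, against 3.86, 4.09 and 4.40 under vehicle, and rose by 5.40 ± 0.22. F13A1, the A subunit of clotting factor XIII and a macrophage product, was at 11.35, 11.32 and 10.91 in treated cultures, against 5.89, 6.36 and 6.03 in vehicle cultures, a rise of 5.10 ± 0.19. IGF1, a growth factor, was at 12.49, 12.61 and 12.32 under EPZ004777, against 7.35, 7.59 and 7.74 under vehicle and rose by 4.91 ± 0.11. In each of these genes the lowest treated array was at least 3 log2 units above the highest vehicle array. CSGALNACT1, an enzyme of chondroitin sulfate synthesis (4.56 ± 0.12), CLEC12A, an inhibitory lectin of myeloid cells (4.43 ± 0.21), and CD84, a receptor of the SLAM family (3.94 ± 0.10), rose as well. So did the GTPase RAB27B (4.08 ± 0.18), the monooxygenase CYP1B1 (4.02 ± 0.13) and the repressor PRDM1 (4.09 ± 0.14), although the next probe set of PRDM1 gave only 0.29. H2AC6, a histone H2A gene that is one of many near-identical copies, rose by 4.50 ± 0.36 while its vehicle arrays spread over 5.93, 4.56 and 3.60. CDKN1C, the inhibitor of cyclin-dependent kinases called p57, was at 8.59, 8.09 and 8.06 in treated cultures, against 4.06, 4.41 and 3.77 in vehicle cultures, and rose by 4.17 ± 0.24 (adjusted p = 2.65e-11). The 157 genes that rose at least 2-fold from a vehicle mean below 4 lie in a range in which the background step of GCRMA largely sets fold sizes. The largest of them were GASK1B (5.84), ZNF366 (5.63), TSPOAP1 (5.61), CRISPLD2 (5.21) and TMEM176B (5.17). GASK1B and ZNF366 were at the lowest value on all 3 vehicle arrays, and between 7.77 and 8.09 on the treated arrays.

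The largest falls were likewise those of genes with varied roles. EGR1, a transcription factor induced within minutes by growth signals, had levels of 6.29, 4.76 and 4.68 under EPZ004777, against 10.71, 10.12 and 9.35 under vehicle. It fell by 4.82 ± 0.46 (adjusted p = 2.62e-08), with a wide spread inside both groups and no overlap. TNF, an inflammatory cytokine, was at 5.66, 4.55 and 4.97 in treated cultures, against 9.07, 8.90 and 8.74 in vehicle cultures, and fell by 3.84 ± 0.21. DHCR7, the last enzyme of cholesterol synthesis, was at 5.87, 6.15 and 5.99 under EPZ004777, against 9.72, 9.68 and 9.32 under vehicle, and fell by 3.57 ± 0.14. ALOX12, a 12-lipoxygenase, had values close together, 7.76, 7.54 and 7.67 in treated cultures, against 10.69, 10.71 and 10.66 in vehicle cultures, a fall of 3.03 ± 0.067. The stress factor ATF3 (-3.40 ± 0.46), the AP-1 subunit FOS (-2.95 ± 0.38), the small Maf protein MAFF (-2.93 ± 0.19) and the pseudokinase TRIB3 (-2.89 ± 0.28) fell, and so did RGCC (-3.46 ± 0.28), a regulator of the cell cycle. ALDH1A3, an enzyme of retinoic acid synthesis (-3.43 ± 0.17), INHBA, a subunit of activin (-2.69 ± 0.14), the chemokine CCL5 (-2.68 ± 0.23), the sterol pathway kinase MVK (-2.69 ± 0.27) and ANKRD37 (-2.71 ± 0.30) complete those with a measured treated level, with the Fc receptor pseudogene FCGR1BP (-2.91 ± 0.12). Its probe set may also read its near-identical parent genes. FOS rested in part on treated replicate 3, which was at 3.84, and changed by -2.30 without it. Among genes whose treated mean was below 4, the largest falls were IL4I1 (-5.03), EGR3 (-4.98), MIR210HG (-4.02), AKR1C2 (-3.93) and GPR84 (-3.84).

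**Figure D2:**
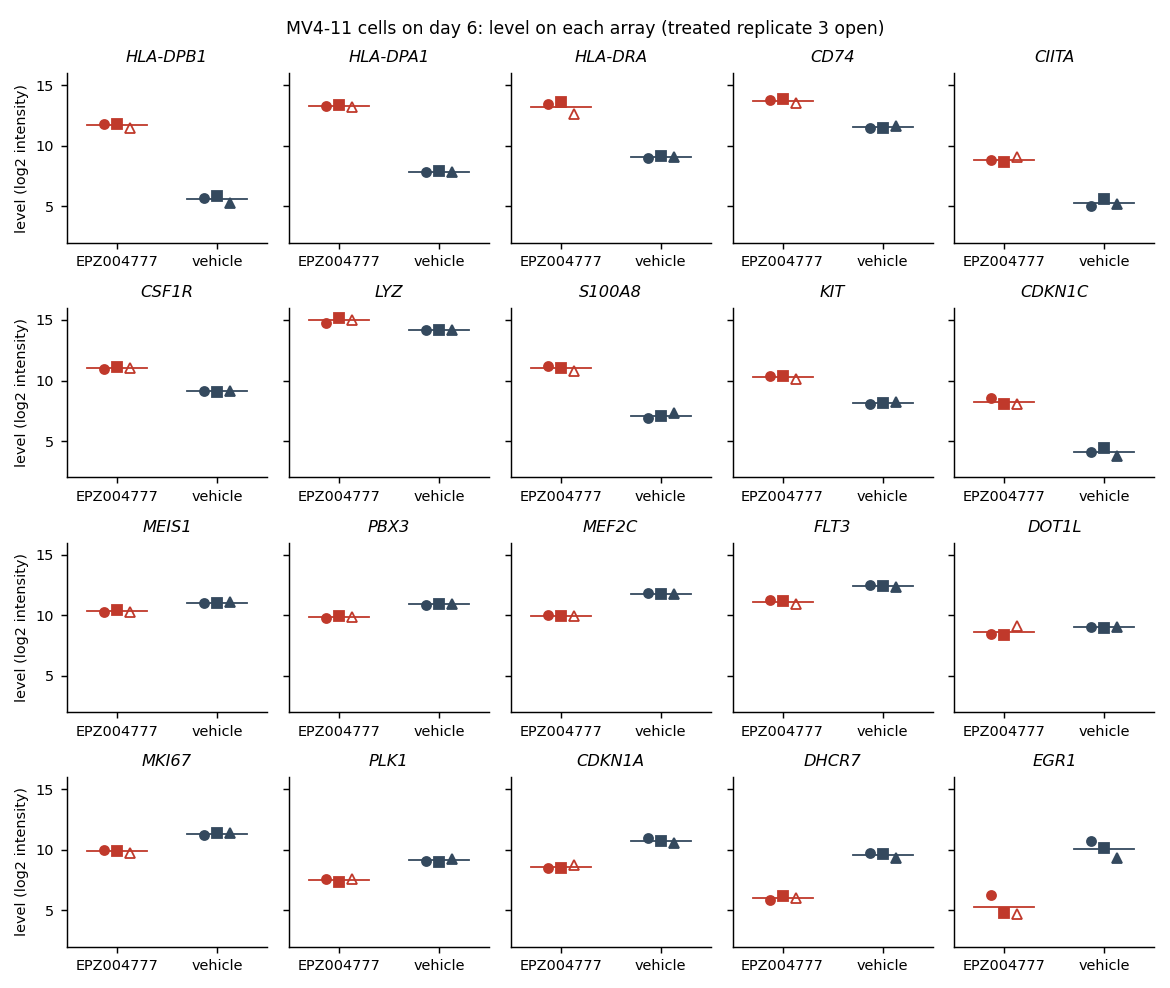
Level (log2 intensity) of 20 genes on each array, 3 EPZ004777 arrays at the left and 3 vehicle arrays at the right of each panel, with group means as bars and treated replicate 3 as an open triangle. HLA-DPB1 lies at 11.49 to 11.84 in treated and 5.32 to 5.88 in vehicle cultures, and DOT1L is the gene of the 20 whose groups overlap.

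Most genes of maturing myeloid cells that could be measured rose. Of 24 monocyte and macrophage genes analysed here, 9 stayed below 4 on all 6 arrays, among them CD163, MRC1, C1QA and C1QB. Of 17 monocyte and macrophage genes tested, 12 rose and 1 fell, with a median of 0.82. CSF1R, the receptor for macrophage colony-stimulating factor, was at 10.98, 11.09 and 11.02 under EPZ004777, against 9.14, 9.08 and 9.17 under vehicle, and rose by 1.90 ± 0.093. The pore-forming MPEG1 (1.58 ± 0.079), the scavenger receptor CD36 (1.89 ± 0.15) and the chemokine receptor CCR2 (0.78 ± 0.086, next probe set -0.53) rose, and so did ITGAM, the integrin alpha M chain, by 1.14 ± 0.29. CD86, a costimulatory ligand, rose by 3.51 ± 0.27 from a vehicle level near the lowest value, as ADGRE1 did (2.60 ± 0.21). TREM1 was the member that fell (-1.98 ± 0.57), with vehicle arrays at 6.55, 5.16 and 3.11, and had -1.18 (adjusted p = 0.0542) without vehicle replicate 1. The list had 2 lower without vehicle replicate 3. CD14 was at the lowest value on all 6 arrays, so the line showed no measurable level of that monocyte marker with or without the inhibitor.

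Most granule genes rose. Of 10 primary granule genes, 8 rose and 1 fell (median 0.93). CTSG, the protease cathepsin G, was at 14.55, 14.48 and 14.39 in treated cultures, against 12.60, 12.60 and 12.56 in vehicle cultures, and rose by 1.89 ± 0.075. ELANE, neutrophil elastase (1.11 ± 0.053), PRTN3, proteinase 3 (0.65 ± 0.081), AZU1, azurocidin (0.67 ± 0.069), and CST7, cystatin F (1.13 ± 0.13), rose with it. LYZ, lysozyme, rose by 0.82 ± 0.11, and MPO, myeloperoxidase, by 1.04 ± 0.20. SRGN, the granule proteoglycan, fell by 0.32 ± 0.11 (next probe set 0.054), with an adjusted p of 0.144 without treated replicate 3. Of 16 neutrophil maturation genes analysed here, 9 stayed below 4 on all 6 arrays, among them the granule genes LTF, LCN2 and CEACAM8. Of the 6 that were tested 5 rose and 0 fell. S100A8, a subunit of calprotectin, was at 11.21, 11.05 and 10.76 under EPZ004777, against 6.90, 7.08 and 7.29 under vehicle, and rose by 3.92 ± 0.11, S100A9 rose by 2.14 ± 0.19 and the G-CSF receptor CSF3R by 1.18 ± 0.075. Of 19 lysosome genes, 16 rose and 0 fell (median 0.48). A single member fell when treated replicate 1 or treated replicate 2 was left out. Those that rose include PSAP, the precursor of the saposins (2.05 ± 0.07), progranulin GRN (1.38 ± 0.084), the ceramidase ASAH1 (1.17 ± 0.064) and the protease CTSS (1.28 ± 0.11). Of 5 subunits of the phagocyte NADPH oxidase, NCF4 rose (0.30 ± 0.07) and NCF1 fell (-1.99 ± 0.18), while CYBB, the membrane subunit, had a change of 0.24 ± 0.16 (adjusted p = 0.208), which was 0.41 (adjusted p = 0.0297) without treated replicate 3 and 0.40 (adjusted p = 0.0414) without vehicle replicate 3. NCF1 has near-identical pseudogenes that its probe set may read.

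The transcription factors of myeloid cells went both ways. Of 19 tested, 7 rose and 4 fell, a median of 0.093, and with a common median 7 fell. BCL6, a repressor, was at 8.27, 8.17 and 7.79 in treated cultures, against 3.78, 4.37 and 3.78 in vehicle cultures, a rise of 4.10 ± 0.19 from a level close to the lowest. NFE2 (1.81 ± 0.10), TFEC (1.09 ± 0.078), KLF4 (0.97 ± 0.18), ID2 (0.78 ± 0.084) and CEBPA (0.58 ± 0.075), the factor of granulocyte commitment, rose. KLF2 fell by 2.50 ± 0.23, HHEX by 1.31 ± 0.18 and CEBPB by 0.37 ± 0.10, beside EGR1. SPI1 (PU.1), the master factor of the lineage, had overlapping groups and a change of -0.28 ± 0.13 (adjusted p = 0.0812), IRF8 one of 0.13 ± 0.065 and CEBPD one of 0.075 ± 0.056. SPI1 passed when treated replicate 2 (-0.36) or vehicle replicate 2 (-0.40) was left out, IRF8 when treated replicate 3 (0.17) or vehicle replicate 3 (0.17) was, and CEBPB was -0.24 without vehicle replicate 1.

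Among 18 tested genes known as targets of MLL fusions, 2 rose and 7 fell, with a median of -0.071, where 28.4% of all genes were lower. The count rests on which probe set stands for a gene: with the mean of probe sets 2 rose and 13 fell, a median of -0.43. HOXA9 and HOXA10 are not analysed here. MEF2C, a transcription factor of progenitors and B cells, was at 9.99, 9.95 and 9.97 under EPZ004777, against 11.83, 11.78 and 11.77 under vehicle, and fell by 1.82 ± 0.058 (adjusted p = 4.13e-15). FLT3, a receptor kinase of progenitors, was at 11.28, 11.20 and 10.91 in treated cultures, against 12.46, 12.40 and 12.32 in vehicle cultures, a fall of 1.27 ± 0.088. PBX3, a homeodomain cofactor of HOXA proteins, was at 9.80, 9.90 and 9.88 under EPZ004777, against 10.85, 10.91 and 10.93 under vehicle, and fell by 1.04 ± 0.069. In all 3 genes the spread inside each group was a small part of the difference. MEIS1, the other cofactor, was at 10.25, 10.41 and 10.30 in treated cultures, against 11.03, 10.98 and 11.10 in vehicle cultures, and fell by 0.71 ± 0.082, while its other probe set gave -1.67. The cyclin-dependent kinase CDK6 (-0.36 ± 0.058), LMO2 (-0.54 ± 0.063) and the galectin LGALS1 (-0.48 ± 0.064) fell by less than 2-fold. BCL11A (0.69 ± 0.12) and the chromatin remodeller subunit ARID1B (0.65 ± 0.14) rose. MYB, a target with high expression, was at 13.91, 13.84 and 14.04 under EPZ004777, against 13.97, 13.99 and 14.05 under vehicle, with overlapping groups and a change of -0.072 ± 0.054 (adjusted p = 0.255). BCL2 had a change of 0.14 ± 0.068 (adjusted p = 0.0783), but its next probe set gave -0.74, so probe sets of this gene go apart, and it was 0.20 (adjusted p = 0.0193) without treated replicate 1 and 0.20 (adjusted p = 0.0275) without treated replicate 2. RUNX2 (0.075), JMJD1C (-0.07), ZEB2 (0.16), SENP6 (0.031), CPEB2 (-0.15), FUT4 (-0.062) and MBNL1 (0.14) did not pass the test, with adjusted p-values of 0.15 to 0.778. Without treated replicate 3 the list had 2 higher and 9 lower, with MYB (adjusted p = 0.0399) and CPEB2 (adjusted p = 0.0331) added. Without treated replicate 1 it had 4 higher, with BCL2 and RUNX2 (0.21) added. MYC, a target shared with many pathways, was at 13.25, 13.24 and 12.58 in treated cultures, against 13.51, 13.47 and 13.57 in vehicle cultures, and fell by 0.49 ± 0.12, or by 0.27 without treated replicate 3.

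DOT1L and the proteins it works with showed small changes of both signs. Of 22 tested, 4 rose and 9 fell, a median of -0.056. DOT1L was at 8.45, 8.40 and 9.07 under EPZ004777, against 9.05, 8.93 and 9.03 under vehicle, so treated replicate 3 lay at the vehicle level and the other treated arrays below it. Its change was -0.36 ± 0.13 (adjusted p = 0.0236), and -0.58 without treated replicate 3. Its adjusted p ranged up to 0.143 when another array was left out. An inhibitor acts on the protein, so this RNA is no check of its action. The intact MLL gene KMT2A (-0.24 ± 0.083), AFF1, which encodes AF4 (-0.46 ± 0.048), and MLLT10, which encodes the DOT1L partner AF10 (-0.31 ± 0.072), fell slightly, KMT2A with an adjusted p of up to 0.0678 when 1 array was left out. Probe sets of KMT2A and AFF1 may read fusion and intact transcripts alike. MLLT6, which encodes AF17, rose by 1.01 ± 0.093, the single 2-fold change of the list. SIRT1 rose by 0.39 ± 0.11 and MLLT1, which encodes ENL, by 0.19 ± 0.074, and the adjusted p of MLLT1 was 0.187 without treated replicate 3, 0.131 without vehicle replicate 1 and 0.104 without vehicle replicate 2. CCNT2 rose by 0.57 ± 0.086 (next probe set -0.086), and CDK9, the kinase of the elongation factor P-TEFb, fell by 0.68 ± 0.14 (next probe set 0.51), or by 0.41 without treated replicate 3. HEXIM1, its inhibitor, had -0.66 ± 0.074 (next probe set 0.31), so for these genes the direction depends on the probe set. MEN1 (menin, -0.37 ± 0.082), LEO1 (-0.47 ± 0.091) and CDC73 (-0.27 ± 0.077, next probe set 0.24) fell. AFF4 (0.26), MLLT3 (0.26), ELL (-0.068), ELL2 (0.24), ELL3 (0.13), CCNT1 (0.052), PSIP1 (-0.044), PAF1 (-0.10) and CTR9 (0.0071) did not pass, although PAF1 was -0.21 (adjusted p = 0.0192) without treated replicate 3.

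Receptors of progenitors did not change as one. Of 14 receptors tested, 8 rose and 4 fell. KIT, the receptor for stem cell factor, was at 10.35, 10.36 and 10.13 in treated cultures, against 8.06, 8.18 and 8.23 in vehicle cultures, and rose by 2.12 ± 0.10, opposite to FLT3. CXCR4 (0.98 ± 0.07), CD44 (0.60 ± 0.077, mean of probe sets -0.18) and CSF2RB (0.62 ± 0.076) rose, and CD38 (-2.39 ± 0.12) and the transferrin receptor TFRC (-0.58 ± 0.061) fell. CSF2RA had a change of -0.083 ± 0.23 (adjusted p = 0.784) but 0.39 (adjusted p = 0.00153) without treated replicate 3, since its treated arrays were at 9.07, 8.97 and 7.59. Of 8 stem and progenitor transcription factors and regulators, 4 rose, among them MSI2 (1.28 ± 0.12), LYL1 (0.89 ± 0.074) and SOX4 (0.80 ± 0.085), and 4 fell, among them GATA2 (-1.54 ± 0.30) and ETV6 (-0.63 ± 0.093, next probe set 0.12).

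Genes of cell division fell almost without exception. All 30 tested genes of DNA replication fell (median -0.82), all 30 of mitosis and the spindle (median -1.03) and all 19 of replication-linked chromatin (median -0.87), against 28.4% lower over all genes. Without treated replicate 3 these counts were the same and the medians were -0.82, -0.97 and -0.85. MKI67, the proliferation marker Ki-67, was at 9.99, 9.91 and 9.71 under EPZ004777, against 11.26, 11.43 and 11.36 under vehicle, and fell by 1.48 ± 0.071 (adjusted p = 1.71e-12). PLK1, a kinase of mitotic entry, was at 7.63, 7.35 and 7.58 in treated cultures, against 9.11, 9.02 and 9.28 in vehicle cultures, a fall of 1.62 ± 0.092. The groups of both genes were more than 1 log2 unit apart. BUB1B (-1.18 ± 0.058) and KIF2C (-1.18 ± 0.063) of the kinetochore, PRC1 of the central spindle (-1.13 ± 0.066) and CDCA8, the chromosomal passenger borealin (-1.35 ± 0.073), fell by similar amounts. MCM10, a factor of helicase activation, was at 9.36, 9.42 and 9.10 under EPZ004777, against 10.98, 11.08 and 11.15 under vehicle, and fell by 1.78 ± 0.11. The origin licensing factors CDC6 (-1.63 ± 0.078) and ORC1 (-1.33 ± 0.091), CDC45 (-1.34 ± 0.084), GINS1 (-0.88 ± 0.055) and the polymerase subunit POLE2 (-1.28 ± 0.081) fell too. EZH2, the methyltransferase of the Polycomb complex (-1.26 ± 0.081), the condensin subunits SMC2 (-1.48 ± 0.13), SMC4 (-0.79 ± 0.046) and NCAPH (-1.38 ± 0.11), and SUV39H2 (-1.01 ± 0.079) stand for the chromatin list. GINS4, singled out after its values were seen, fell by 2.08 with all arrays and 0.77 without treated replicate 3. Of 17 nucleotide synthesis genes 14 fell and 0 rose (median -0.60), as TK1 (-1.13 ± 0.12), RRM2 (-0.73 ± 0.05) and DHODH (-0.88 ± 0.091).

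The promoters of many mitotic genes carry the CHR element, with the core TTTGAA, at which the DREAM and MuvB complexes act. Capitals mark that core in the 150 bases before the start of PLK1 and CDCA8, from the same RefSeq windows of GRCh38.p14, on the coding strand.
PLK1 (chromosome 16, chr16:23678739-23678888, plus strand): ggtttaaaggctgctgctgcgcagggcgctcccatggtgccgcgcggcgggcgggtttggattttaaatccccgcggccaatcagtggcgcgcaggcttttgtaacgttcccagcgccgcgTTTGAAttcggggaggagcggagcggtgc
CDCA8 (chromosome 1, chr1:37692366-37692515, plus strand): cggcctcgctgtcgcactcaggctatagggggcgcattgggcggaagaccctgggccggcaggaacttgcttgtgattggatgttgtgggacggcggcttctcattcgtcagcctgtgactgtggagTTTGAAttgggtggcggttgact
In CDCA8 the core shares its last base with an ATTGG. On either strand TTTGAA was found in the windows of 18 of 25 tested mitosis genes with a window, against 0 of 27 DNA replication genes and 4961 of 27305 genes in all (18.2%). ATTGG was found in 20 of the 25, in 17 of the 27 and in 39.7% of all genes. TTTGAA was also found in 4 of 8 tested class II genes with a window.

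Regulators of the G1 phase were mixed. Of 21, 2 rose and 14 fell (median -0.39). CDKN1C, given above, and RBL2, the pocket protein p130 (0.45 ± 0.081), rose. CDKN1A, the inhibitor p21, went the other way, with levels of 8.50, 8.50 and 8.77 in treated cultures, against 10.96, 10.74 and 10.59 in vehicle cultures, a fall of 2.17 ± 0.10. CDKN1B, the inhibitor p27, lay between 11.61 and 11.85 under EPZ004777, against 11.99 to 12.18 under vehicle, and fell by 0.33 ± 0.11, with an adjusted p of 0.0655 without treated replicate 3 and 0.0716 without vehicle replicate 1. CCND3 (-0.90 ± 0.072), CDK2 (-1.05 ± 0.075), CDC25A (-0.98 ± 0.10) and CDKN2D (-1.36 ± 0.14) fell. CCND1 fell by 2.67 ± 0.19 to the lowest value on all 3 treated arrays, so its treated level was not measurable. Among 20 known targets of p53, 3 rose and 12 fell (median -0.52). The death receptor FAS (-2.40 ± 0.19), TIGAR (-1.17 ± 0.076), DDB2 (-0.95 ± 0.075) and TNFRSF10B (-0.83 ± 0.064) fell, and TP53INP1 (1.42 ± 0.079) and ZMAT3 (0.94 ± 0.091) rose. In the BCL2 family, 5 of 15 rose and 4 fell (median 0.067), but with the mean of probe sets 2 rose and 7 fell (median -0.21). BMF (1.59 ± 0.11) and BIK (1.07 ± 0.088), which promote cell death, rose, while BNIP3 (-1.74 ± 0.17), PMAIP1 (NOXA, -1.13 ± 0.16) and BAX (-0.55 ± 0.066) fell. BCL2L11 (BIM) rose by 0.24 ± 0.061 (next probe set -0.20), and MCL1 had a change of 0.067 ± 0.075 (next probe set -1.31).

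**Figure D3:**
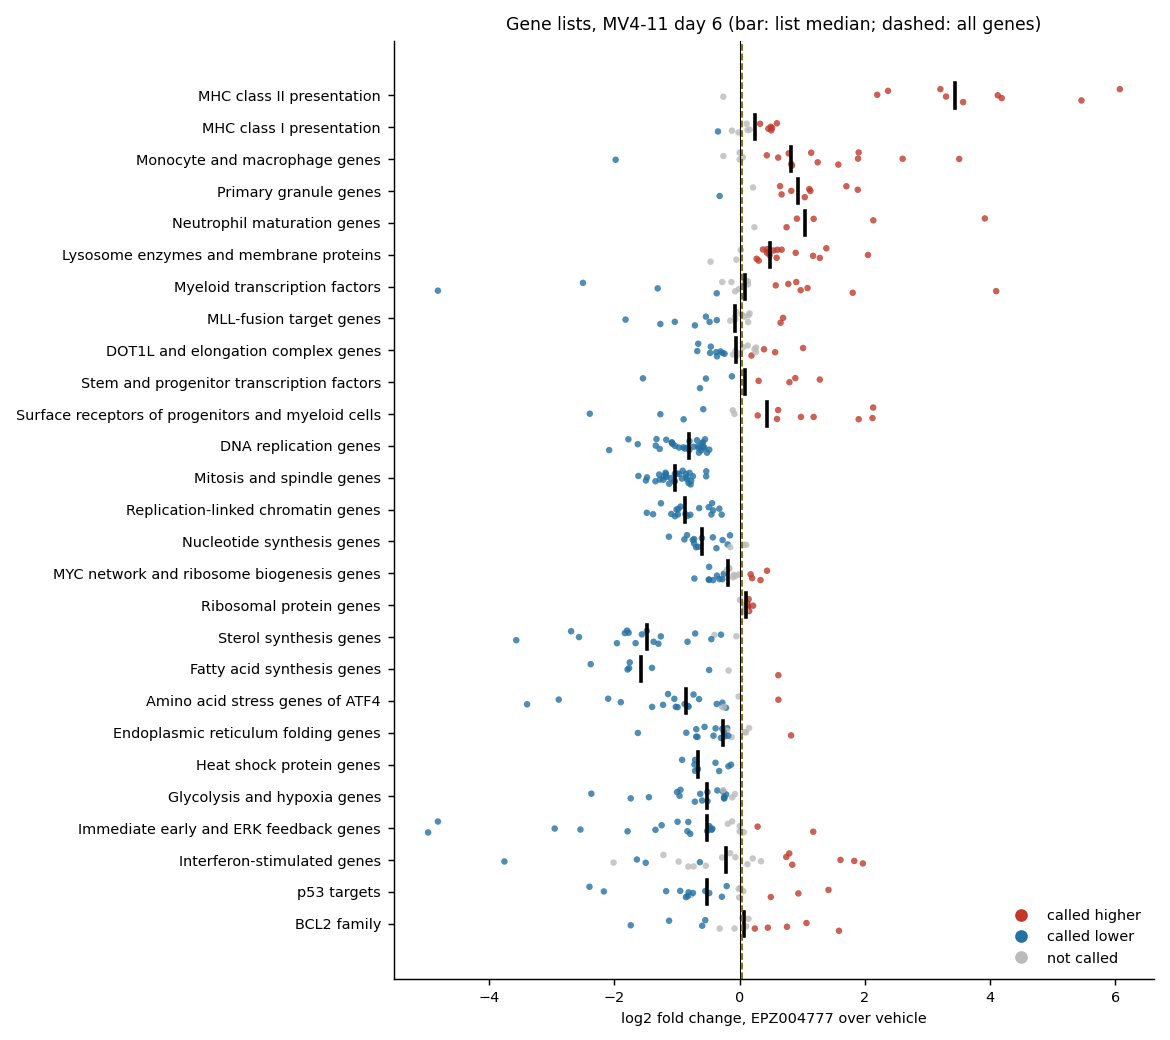
Log2 fold change of EPZ004777 over vehicle for each tested member of 27 gene lists, coloured by call, with the list median as a black bar and the median of all genes tested, 0.035, as a dashed line. MHC class II genes lie farthest right (median 3.43), and sterol, fatty acid, replication and mitosis genes lie left of 0 (medians -1.48, -1.58, -0.82 and -1.03).

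Lipid synthesis genes fell as a group. Of 19 sterol synthesis genes, 17 fell and 0 rose, with a median of -1.48, and 13 fell at least 2-fold. FDPS, farnesyl diphosphate synthase, was at 11.62, 11.61 and 11.43 under EPZ004777, against 12.94, 12.91 and 12.70 under vehicle, and fell by 1.30 ± 0.067. LSS (-1.80 ± 0.11), ACAT2 (-1.77 ± 0.10), EBP (-1.66 ± 0.094) and IDI1 (-1.37 ± 0.08), steps before and after squalene, fell with DHCR7. SREBF2, the transcription factor of the pathway, had a change of -0.054 ± 0.073 (adjusted p = 0.546). Of 8 fatty acid synthesis genes, 6 fell and 1 rose (median -1.58). The desaturases FADS2 (-2.38 ± 0.12) and SCD (-1.79 ± 0.083), fatty acid synthase FASN (-1.76 ± 0.13) and acetyl-CoA carboxylase ACACA (-1.40 ± 0.062) fell. SREBF1 fell by 1.77 ± 0.15, but its next probe set gave 0.041. ELOVL6 rose by 0.62 ± 0.19 (next probe set -0.35), which had an adjusted p of 0.0602 without treated replicate 3. Of 8 genes of lipid efflux and storage, 2 rose and 5 fell, none by 2-fold, and without treated replicate 1 there were 3 that fell. They include the fatty acid carrier FABP5 (-0.62 ± 0.074) and the LXR alpha gene NR1H3 (-0.54 ± 0.13).

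Stress response genes were lower. Of 22 genes of the amino acid response driven by ATF4, 18 fell and 1 rose (median -0.85). Without vehicle replicate 1, 13 fell (median -0.65), and without vehicle replicate 3, 20 fell (median -1.06). TRIB3 was at 7.06, 6.99 and 6.73 in treated cultures, against 10.63, 9.96 and 8.87 in vehicle cultures, with vehicle replicate 1 the highest and replicate 3 the lowest of its group. ATF5 (-1.90 ± 0.23), DDIT4 (-2.10 ± 0.28), the serine enzyme PSAT1 (-1.22 ± 0.11) and the transporters SLC7A5 (-1.04 ± 0.081) and SLC7A1 (-1.02 ± 0.058) fell. ASNS, asparagine synthetase, did not pass (-0.28 ± 0.13, adjusted p = 0.0673), although it was -0.44 (adjusted p = 0.00426) without vehicle replicate 3. Of 20 endoplasmic reticulum folding genes 14 fell and 1 rose (median -0.27), led by XBP1 (-1.63 ± 0.12), SDF2L1 (-0.85 ± 0.10) and PDIA4 (-0.69 ± 0.068), and 2 rose without treated replicate 2. Of 17 cytosolic aminoacyl-tRNA synthetases 11 fell and 0 rose (median -0.31), as AARS1 (-1.02 ± 0.11), GARS1 (-0.76 ± 0.087) and YARS1 (-0.75 ± 0.06), and 1 rose without treated replicate 2. All 9 heat shock genes fell (median -0.67), as HSPE1 (-0.92 ± 0.13), HSPB1 (-0.71 ± 0.062) and DNAJA1 (-0.72 ± 0.11), and without treated replicate 3 the count was 8 of 9. Of 20 glycolysis and hypoxia genes 17 fell and 0 rose (median -0.51), and 14 fell without vehicle replicate 1. Among those that fell were the glucose transporter SLC2A3 (-2.37 ± 0.23), LDHA (-0.72 ± 0.058) and PGK1 (-0.63 ± 0.066).

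Immediate early genes were lower, and STAT5 targets and inflammatory genes went both ways. Of 23 immediate early and ERK feedback genes, 16 fell and 2 rose (median -0.52). The phosphatase DUSP5 (-2.54 ± 0.18), IER3 (-1.79 ± 0.18), FOSL1 (-1.34 ± 0.13) and SPRED2 (-0.83 ± 0.10) fell with EGR1 and FOS. JUN rose by 1.18 ± 0.23, while its next probe set gave 0.093. Of 13 STAT5 targets, 3 rose and 4 fell (1 and 6 with the mean of probe sets): the kinases PIM1 (-0.93 ± 0.11) and PIM2 (-0.59 ± 0.10) fell, STAT5A rose (0.87 ± 0.10), and CISH did not pass (-0.17 ± 0.075, adjusted p = 0.0592), although it was -0.22 (adjusted p = 0.0293) without treated replicate 1 and -0.20 (adjusted p = 0.0474) without vehicle replicate 2. Of 10 cytokine genes, 4 rose, with IL18 (1.99 ± 0.19), CXCL8 (1.70 ± 0.27) and TNFSF10 (1.11 ± 0.19) by more than 2-fold, and TNF, CCL5 and IL1B (-1.52 ± 0.36) fell, IL1B by 1.01 without vehicle replicate 1.

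Interferon-stimulated genes depended on which vehicle arrays were used. Their median level was 4.63, 4.66 and 4.54 on the treated arrays, against 7.16, 4.53 and 3.32 on vehicle replicates 1, 2 and 3. Of 22 tested, 6 rose and 4 fell, a median of -0.22, and without vehicle replicate 1 the median was 0.080, with 9 higher and 2 lower. Without vehicle replicate 2 it had 3 higher and 9 lower (median -0.45), and without vehicle replicate 3 it had 4 higher and 10 lower (median -0.62). Against the vehicle arrays of days 2, 4 and 6 together, 3 were higher and 12 lower (median -0.83). MX1, an antiviral GTPase, was at 4.67, 4.54 and 4.91 under EPZ004777, against 7.31, 4.20 and 3.06 under vehicle, so the vehicle group enclosed the treated one. Its change was -0.15 ± 0.65 (adjusted p = 0.864), and 1.07 (adjusted p = 0.0219) without vehicle replicate 1. HERC6 (1.97 ± 0.34), HERC5 (1.61 ± 0.33) and RSAD2 (1.83 ± 0.52) rose, and IFIT3 (-3.76 ± 1.07), with vehicle levels of 9.52, 5.95 and 2.57, USP18 (-1.50 ± 0.37) and ISG15 (-0.64 ± 0.20) fell. Without vehicle replicate 1, IFIT3 was -2.01 and ISG15 -0.33 (adjusted p = 0.0964), and without vehicle replicate 3 RSAD2 was 1.20.

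Ribosomal protein genes changed by small amounts. Of 14 ribosomal protein genes 7 rose and 0 fell, a median of 0.11, as RPS4X (0.21 ± 0.042) and RPL11 (0.15 ± 0.05). Whether changes of this size were called depended on the scaling. With a common median 1 was higher and 0 lower (median 0.034), while a further quantile normalization left 3 higher and 0 lower (median 0.051). The count that rose was 4, 3 and 4 without treated replicate 1, vehicle replicate 2 and vehicle replicate 3, and RPL11 did not pass without vehicle replicate 2 (adjusted p = 0.0656). Of 20 genes of the MYC network and ribosome biogenesis 4 rose and 9 fell (median -0.19), and 2 rose without treated replicate 3 or vehicle replicate 2. With a common median 2 of these rose and 14 fell, and with the mean of probe sets 1 rose. NIP7 (-0.72 ± 0.092), NCL (-0.27 ± 0.048) and RRP12 (-0.49 ± 0.089) were among those that fell. Among 18 respiratory chain subunits 4 rose and 9 fell (median -0.18). Of 13 genes of the S-adenosylmethionine cycle, which makes the methyl donor of DOT1L, 9 fell and 0 rose (median -0.31), as CBS (-1.78 ± 0.14) and ADK (-1.13 ± 0.10), and 7 fell without treated replicate 3. Other histone lysine methyltransferases and demethylases split evenly, 10 higher and 10 lower of 25 (6 and 11 with the mean of probe sets), with EZH1 (1.12 ± 0.10) and SETD2 (0.54 ± 0.067) higher and NSD2 (-1.42 ± 0.077) and KDM1A (-0.58 ± 0.08) lower beside EZH2. Among 13 housekeeping genes 7 fell and 0 rose (median -0.14), with ACTB (-0.18 ± 0.048) and GAPDH (-0.25 ± 0.061) lower on the treated arrays. The 3' control signal of GAPDH was 14.80, 14.76 and 14.87 on treated arrays, against 14.85, 14.86 and 14.83 on vehicle arrays. That of ACTB was 15.29, 15.33 and 15.46 on treated arrays, against 15.50, 15.47 and 15.52 on vehicle arrays. Whether RNA quality had a part in the falls of these genes was not tested.

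B-lymphoid markers, which belong to the biphenotypic label of the line, and markers of other cells were mostly at the bottom of the scale. Their part in the changes above was not tested. In the B-lymphoid list, 9 of 13 genes stayed below 4 on all 6 arrays, among them the B-cell antigens CD79A, MS4A1 and CD22 and the factor EBF1. Most markers of the B part of the label thus had no level above 4 here. Its summed linear intensity was 865 to 1286 in treated and 524 to 618 in vehicle cultures, and IGLL1 (1.04 ± 0.15) and BLNK (2.69 ± 0.19) rose while PAX5 did not pass (-0.14 ± 0.26, adjusted p = 0.675). The sum of T and NK markers, with 12 of 14 below 4, was 2316 to 2824 in treated and 1298 to 1422 in vehicle cultures, and NKG7 (0.96 ± 0.08) rose. Erythroid markers (7 of 10 below 4) summed to 159 to 233 in treated and 295 to 354 in vehicle cultures, and megakaryocyte markers (10 of 12 below 4) to 458 to 497 in treated and 174 to 193 in vehicle cultures, with ITGA2B (1.16 ± 0.17) higher. The mast cell, basophil and eosinophil list (8 of 11 below 4) summed to 202 to 231 in treated and 244 to 263 in vehicle cultures, although PRG2 rose by 2.65 ± 0.15. Dendritic cell markers (8 of 17 below 4) gave 17999 to 18571 in treated and 16815 to 17381 in vehicle cultures. There TCF4, the factor of plasmacytoid cells, rose by 3.00 ± 0.10, CD209 by 1.81 ± 0.17, and CD83 (-1.43 ± 0.13) and BATF3 (-0.86 ± 0.19) fell. Fibroblast and epithelial markers (8 of 11 below 4) summed to 517 to 585 in treated and 682 to 759 in vehicle cultures. Markers of the myelomonocytic part of the label summed to 43508 to 53343 in treated and 30607 to 31689 in vehicle cultures.

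The effect on day 6 was then set against that on day 4, which has its own treated and vehicle arrays. Whether the 2 days share cultures is not given by the labels. The difference (day 6 effect minus day 4 effect) passed for 2824 genes (25.7%), with 1522 positive (13.9%) and 1302 negative (11.9%). The balance turned with the scaling, to 1263 positive and 1710 negative with a common median, and 1136 genes passed with the vehicle arrays of day 2 in place of those of day 4. Division genes fell further: the difference was negative for 26 of 30 mitosis genes and 20 of 30 replication genes and positive for 0 of either. MKI67 changed by -1.48 ± 0.071 on day 6 and -0.76 ± 0.071 on day 4 (difference -0.72 ± 0.10, adjusted p = 7.56e-05). MEIS1 changed by -0.71 ± 0.082 on day 6 and -0.15 ± 0.082 on day 4 (difference -0.57 ± 0.12, adjusted p = 0.00187). The lysosome list was positive for 8 of 19, as PSAP (2.05 ± 0.07 on day 6 and 0.93 ± 0.07 on day 4), and class II genes for 2 of 10. The interferon list was positive for 18 of 22 and the endoplasmic reticulum list for 9 of 20. Of the 6800 genes called on day 6, 4025 were also called on day 4. The shares of all genes higher or lower on day 4 are not given here, so its list counts are descriptions only. On day 4 itself, 19 of the 22 interferon genes were lower and 0 higher (median -2.59). Of the 20 endoplasmic reticulum genes, 17 were lower and 1 higher on that day (median -0.68). The day 4 change of MX1 was -4.31 ± 0.65, and on day 6 its vehicle arrays spread as given above. The 8 most positive differences among genes measured in all 4 groups were MX1 (4.16 ± 0.92), the chemokine CXCL8 (3.39 ± 0.38), complement C3 (3.27 ± 0.41), the cystine transporter SLC7A11 (2.90 ± 0.44), PIR (2.80 ± 0.31), RSAD2 (2.76 ± 0.73), IFI6 (2.75 ± 0.48) and H2AC6 (2.62 ± 0.51). The 8 most negative were APOL4 (-2.28 ± 0.54), AP1S3 (-2.15 ± 0.38), GK6P (-1.88 ± 0.31), GTF2I (-1.80 ± 0.40), PURPL (-1.79 ± 0.25), the cohesin acetyltransferase ESCO2 (-1.75 ± 0.22), EIF5A (-1.72 ± 0.46) and MOCS3 (-1.72 ± 0.41). The day 6 change of APOL4 was -1.47 ± 0.38, but 0.41 on its next probe set. With the gap between the 3' and 5' control signals as a covariate the count of differences was 1497, and APOL4, EIF5A and MOCS3 had adjusted p-values of 0.0873, 0.0867 and 0.0695.

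The same day in MOLM-13 cells gave a picture that differed in part. Of the 6800 genes called in MV4-11 cells, 4745 were also called in MOLM-13 cells. The shares of all genes higher or lower in MOLM-13 cells are not given here. The list counts of that line are therefore descriptions without a background to read them against. Several lists went the same way there. Of 19 sterol genes 15 fell and 0 rose, and of 22 ATF4 genes 17 fell and 1 rose. Of 30 replication genes 21 fell and 3 rose, and of 17 monocyte genes 16 rose and 1 fell. The difference of the effects (MV4-11 minus MOLM-13) passed for 5709 genes (52.0%), with 3586 positive (32.7%) and 2123 negative (19.4%). With a common median the balance turned to 2597 positive and 3201 negative, and after a further quantile normalization to 2775 positive and 3007 negative. Line, fusion and medium differ together and cannot be told apart, and the control gap was wider in treated MOLM-13 arrays (2.10 to 2.84) than in treated MV4-11 arrays. Class II genes rose more in MV4-11 cells, while in MOLM-13 cells 5 of 10 rose and 1 fell (median 0.48). The difference was positive for 9 of 10 and negative for 1, with HLA-DPB1 at 6.07 ± 0.24 in MV4-11 and 0.42 ± 0.24 in MOLM-13. CDKN1C changed by 4.17 ± 0.24 in MV4-11 and -0.20 ± 0.24 in MOLM-13 (difference 4.37 ± 0.34, adjusted p = 5.06e-09), and KIT by 2.12 ± 0.10 in MV4-11 and 0.00 ± 0.10 in MOLM-13 (difference 2.12 ± 0.14, adjusted p = 3.02e-10). MEIS1 fell less in MV4-11 (-0.71 ± 0.082) than in MOLM-13 (-2.09 ± 0.082), a difference of 1.38 ± 0.12 (adjusted p = 1.34e-08), and PBX3 fell more (-1.04 ± 0.069 in MV4-11 and -0.10 ± 0.069 in MOLM-13, difference -0.94 ± 0.10, adjusted p = 2.09e-07). Of 30 mitosis genes 24 had a negative difference and 0 a positive one, and of 19 sterol genes 13 and 1. Of 17 monocyte genes 11 had a negative and 3 a positive difference, and CD14, at the lowest value in MV4-11, had a change of 2.23 ± 0.11 in MOLM-13. The most positive differences were ANXA2R (5.98 ± 0.35), HLA-DPB1 (5.66 ± 0.34), HMX2 (4.84 ± 0.16), IGLL1 (4.71 ± 0.21), H2AC6 (3.85 ± 0.51), AXL (3.83 ± 0.49), ENPP2 (3.81 ± 0.13) and PDGFC (3.80 ± 0.27). The most negative were ITGB2-AS1 (-5.61 ± 0.34), the kinase FGR (-4.57 ± 0.16), ALOX12 (-4.47 ± 0.094), the protease inhibitor SLPI (-4.27 ± 0.33), TNF (-4.22 ± 0.30), CYBB (-3.84 ± 0.22), ADAP2 (-3.71 ± 0.21) and FOS (-3.50 ± 0.53). HMX2 shows how such a difference can come from 1 line, with 0.05 ± 0.11 in MV4-11 and -4.79 ± 0.11 in MOLM-13.

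**Figure D4:**
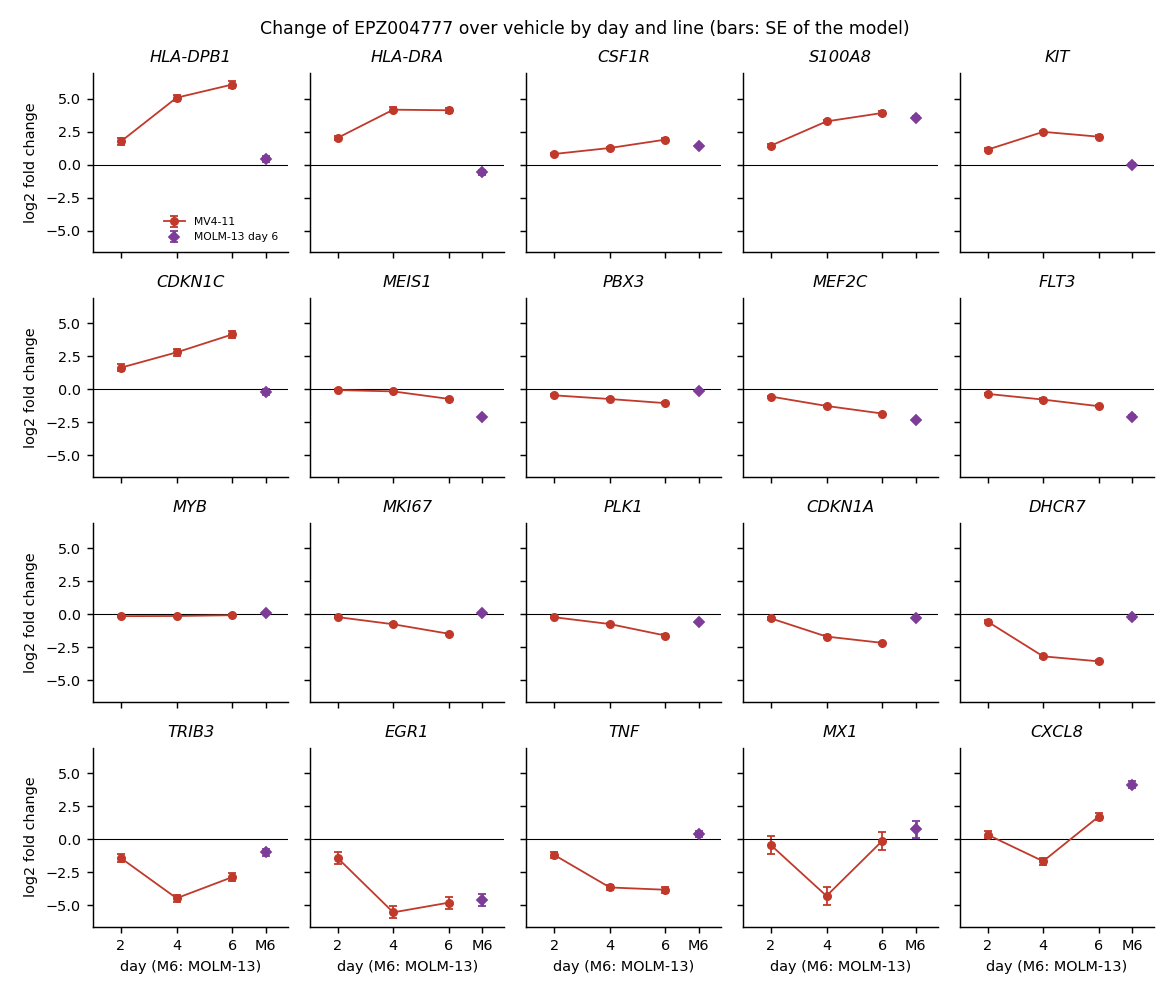
Log2 fold change of EPZ004777 over vehicle for 20 genes in MV4-11 cells on days 2, 4 and 6 (red circles) and in MOLM-13 cells on day 6 (purple diamonds), with the SE of the model as bars, each point from 3 treated and 3 vehicle arrays. CDKN1C stood at 1.61, 2.81 and 4.17 on days 2, 4 and 6, and MX1 and CXCL8 were below 0 on day 4.

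Leaving out treated replicate 3 changed the sign of no called gene, but it moved the counts of several lists. The calls it removed or made among genes of the lists were small changes such as those of PSMB8, SRGN, MLLT1, CDKN1B, ELOVL6, MYB and CSF2RA. The counts of class II, replication, mitosis, chromatin, sterol and ATF4 genes were the same with 3 and with 2 treated arrays. Among those that moved, myeloid transcription factors went from 7 higher and 4 lower to 9 and 5. Primary granule genes went from 8 and 1 to 9 and 0, and respiratory chain subunits from 4 and 9 to 3 and 7. The DOT1L list went from 4 and 9 to 3 and 10, and lysosome genes from 16 to 15 higher. Over all genes the list of calls with that array left out held 426 genes that the full set of arrays did not call. Weighting arrays by their spread gave treated replicate 3 a weight of 0.12, and 7362 genes were then called.

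**Figure D5:**
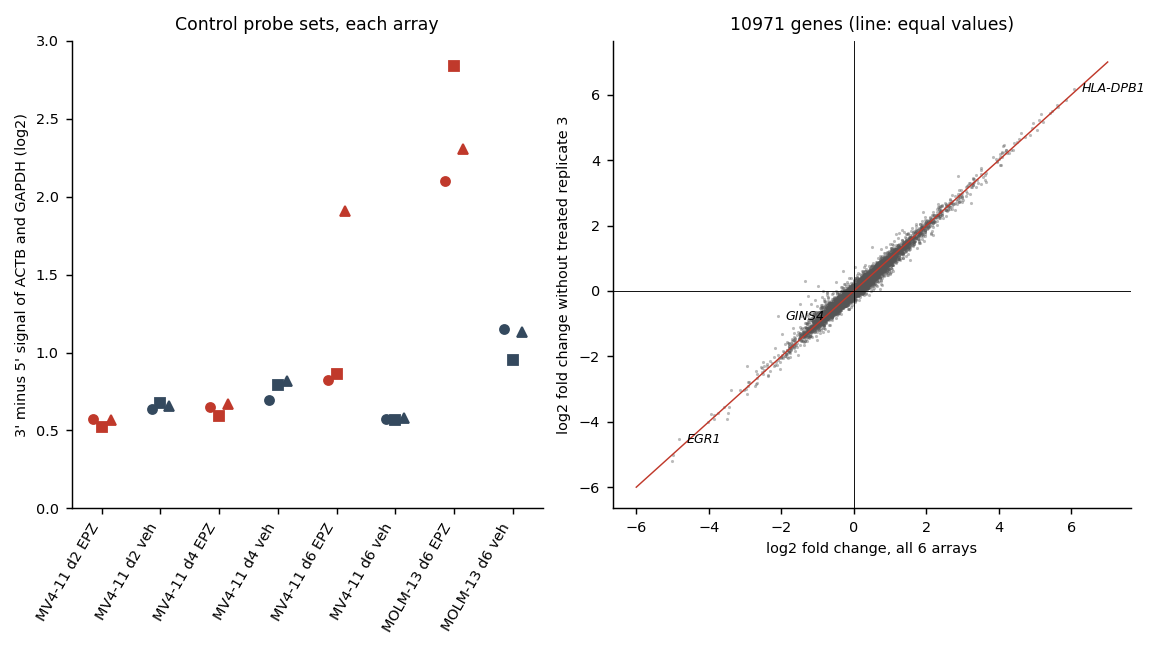
Left, the difference between the 3' and 5' signals (log2) of the control probe sets of ACTB and GAPDH on each of the 24 arrays, EPZ004777 in red and vehicle in dark blue, with a circle, a square and a triangle for replicates 1, 2 and 3. Right, the log2 fold change of 10971 genes with all 6 arrays and without treated replicate 3. That array lies at 1.91 while the other day 6 MV4-11 arrays lie at 0.57 to 0.86, and the genes follow the line of equal values.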

How the data were processed

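The deposited table holds 1 intensity per probe set for each of 24 Affymetrix arrays, and the submitters' processing notes name GCRMA, which adjusts background, normalizes quantiles and summarizes probe sets. Its version and settings are not given in the sources used here. The deposited intensity values were linear, from 4.55 to 71593, so log2 was taken with a pseudocount of 0, and the number of arrays limits the precision.

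Of 54675 probe sets, 41091 had 1 gene symbol in the platform annotation, 1801 had several, 11721 had none and 62 were controls. Genes with log2 of at least 4 on at least 3 arrays were tested, by the probe set with the highest mean. A model with 1 mean for each of the 8 groups used limma 3.58.1 (lmFit, contrasts.fit, eBayes, two-sided, Benjamini-Hochberg) under R 4.3.3, and the rest used Python 3.11.15 with pandas 2.3.3. The fit was tested on simulated data. The members, lists and rules were chosen with earlier results of these data known, and list counts have no test. The rule for naming genes took the top 15 rises and top 15 falls with groups that do not overlap and calls that hold without treated replicate 3, the top 5 each way whose lower group was below 4, all members of 3 lists (class II, fusion targets, DOT1L), up to 6 called members a direction and 4 others of each other list, a panel of 26 genes of which 4 are not analysed here, and the 8 extremes of each difference. The text gives a part of these. Alternatives were other filters, probe sets, scalings, priors, array weights, vehicle arrays, the replicate number as a block, the control gap as a covariate, and each array left out.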

Additional observations from a re-analysis of the deposited data

Results flagged for a closer look

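The effect of the inhibitor on day 6 differed from that on day 4 by limma's test of the difference itself in 16 genes named by the rule of extremes. The differences (day 6 effect minus day 4 effect) were 4.16 for MX1, 3.39 for CXCL8, 3.27 for C3, 2.90 for SLC7A11, 2.80 for PIR, 2.76 for RSAD2, 2.75 for IFI6 and 2.62 for H2AC6. On the other side they were -2.28 for APOL4, -2.15 for AP1S3, -1.88 for GK6P, -1.80 for GTF2I, -1.79 for PURPL, -1.75 for ESCO2, -1.72 for EIF5A and -1.72 for MOCS3. Without treated replicate 3, APOL4 was at -1.57, AP1S3 at -1.72, GTF2I at -1.25, EIF5A at -1.07 and MOCS3 at -1.21, each with an adjusted p under 0.05. CXCL8 changed by 1.70 ± 0.27 on day 6 and -1.68 ± 0.27 on day 4, PIR by 2.42 ± 0.22 on day 6 and -0.38 ± 0.22 on day 4, and C3 by 0.86 ± 0.29 on day 6 and -2.41 ± 0.29 on day 4.

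The effect in MV4-11 cells differed from that in MOLM-13 cells on day 6 by the same test in 16 genes, H2AC6 being in both sets. The differences (MV4-11 effect minus MOLM-13 effect) were 5.98 for ANXA2R, 5.66 for HLA-DPB1, 4.84 for HMX2, 4.71 for IGLL1, 3.85 for H2AC6, 3.83 for AXL, 3.81 for ENPP2 and 3.80 for PDGFC. They were -5.61 for ITGB2-AS1, -4.57 for FGR, -4.47 for ALOX12, -4.27 for SLPI, -4.22 for TNF, -3.84 for CYBB, -3.71 for ADAP2 and -3.50 for FOS. FOS was at -2.84 without treated replicate 3 and at -4.55 with the control gap as a covariate. ANXA2R changed by 1.80 ± 0.25 in MV4-11 cells and -4.18 ± 0.25 in MOLM-13 cells, IGLL1 by 1.04 ± 0.15 in MV4-11 cells and -3.67 ± 0.15 in MOLM-13 cells, and FGR by -0.55 ± 0.12 in MV4-11 cells and 4.02 ± 0.12 in MOLM-13 cells.

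Probe sets that stand for no single gene were outside the comparison of genes. Of 4528 that passed the filter, 2123 were called on day 6 (46.9%) in a test of their own, 1079 higher and 1044 lower. At least 2-fold changes were 265 higher and 260 lower, without the excess of rises seen among the genes.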

How the results depend on the processing

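Of the 10971 genes, 6800 were called on day 6. With a 2-fold minimum 1281 were called. With the next probe set, which 5633 genes have, 3362 were called (59.7%), 1351 higher and 2011 lower. Every other setting gave from 5728 calls, with only the 6 arrays of the comparison, to 7457, with the vehicle arrays of days 2, 4 and 6. With 1 array left out the count was 6265 to 6581, with 3437 to 3595 higher and 2821 to 3002 lower. Differences between day 6 and day 4 numbered 1497 (924 higher, 573 lower) with the 3' to 5' gap as a covariate and 1136 (664 higher, 472 lower) with the vehicle arrays of day 2 in place of day 4. They numbered 2190 to 3164 (1237 to 1676 higher, 952 to 1488 lower) with 1 array left out. Differences between MV4-11 and MOLM-13 numbered 5274 to 6193 (3296 to 3819 higher, 1965 to 2374 lower) with 1 array left out, and with a common median 3201 were lower. The cause of these shifts was not tested, apart from the fewer genes or larger change that a setting asks for by its construction.

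Whether replicate numbers pair the samples is not given by the labels, and 3 arrays a group cannot decide it. Deviations of same-numbered treated and vehicle arrays correlated at 0.0064, 0.096 and 0.093, and those of the other pairs at -0.108 to 0.080. With the replicate number as a block, 6750 genes were called, and no gene given with a value in the report changed its call. The ribosomal list then had 5 higher and the interferon list 3 lower.

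Direction turned for some genes with another probe set. The next probe set gave 0.41 for APOL4, -0.74 for BCL2, -0.20 for BCL2L11, -0.086 for CCNT2, -0.53 for CCR2, 0.24 for CDC73, 0.51 for CDK9, -0.35 for ELOVL6, -0.10 for ENPP2, 0.12 for ETV6, 0.31 for HEXIM1, -0.28 for MBNL1, -1.31 for MCL1, 0.041 for SREBF1 and 0.054 for SRGN. The mean of probe sets gave -0.21 for BCL2, -0.34 for BCL2L11, -0.18 for CD44, -1.08 for MBNL1 and -1.11 for MCL1. CSF2RA was at 0.30 with array weights, 0.54 with the gap as a covariate and 0.39 without treated replicate 3. With 1 array left out MX1 ranged over -1.05 (without vehicle replicate 3) to 1.07 (without vehicle replicate 1), and the median of interferon-stimulated genes over -0.62 to 0.080 for the same arrays. Which probe set tracks each transcript was not tested. Genes near the lowest value have no measurable level, so their changes are limited by signal over background.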
